A study of Mus musculus with 18 samples.

Results

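The genes described here are 10 CXC chemokine ligands of the mouse: Cxcl1, Cxcl2, Cxcl3, Cxcl5, Cxcl9, Cxcl10, Cxcl12, Cxcl13, Cxcl14 and Cxcl16. They were taken by symbol from a table of 21831 genes, by a rule that sets no threshold on a measured value, and all 10 symbols had a row. The study set macrophages that lack the nuclear receptor PXR (gene Nr1i2) against control macrophages, each with and without a PXR ligand. The cells were peritoneal macrophages of 6-week-old C57BL/6 mice that had received 1 mL of 3% thioglycollate, an irritant, intraperitoneally 3 days earlier. After 4 h of attachment the cultures were kept for 12 h with 20 µM PCN (pregnenolone 16α-carbonitrile, which activates mouse PXR) or with the solvent DMSO. Total RNA was sequenced in 18 libraries.

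The dMye_PCN group (n = 6) and the dMye_DMSO group (n = 6) were cells deleted for PXR in the myeloid lineage, given PCN or DMSO. The FF_PCN group (n = 3) and the FF_DMSO group (n = 3) were cells whose PXR alleles are floxed, given PCN or DMSO. The Cre line is not named in the labels. Nor do they say if the libraries within a group are different animals or parallel wells, so a p-value covers spread from library to library, possibly technical. Replicate numbers below only name libraries.

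CXC chemokines are small secreted proteins that bind G protein-coupled receptors and steer the movement of leukocytes. Those with the amino acids ELR before the CXC motif (among the genes described here, Cxcl1, Cxcl2, Cxcl3 and Cxcl5) attract neutrophils through Cxcr2. Macrophages are among the cells that can make them in response to NF-kB signalling from Toll-like and interleukin-1 receptors. Cxcl9 and Cxcl10 are interferon-induced ligands of Cxcr3 on activated T and NK cells, whereas Cxcl12 (receptor Cxcr4), Cxcl13 (receptor Cxcr5) and Cxcl14 are made largely by stromal cells, and Cxcl16 is a membrane-bound ligand of Cxcr6 that macrophages display and shed.

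Of the 10 genes, 7 lie on chromosome 5. In the GENCODE M21 annotation of GRCm38, the assembly that mm10 is a name for, Cxcl5 (chr5:90759360-90761624), Cxcl3 (chr5:90786103-90789600), Cxcl1 (chr5:90891241-90893115) and Cxcl2 (chr5:90903871-90905938) stand in this order on the plus strand, with the platelet chemokine genes Ppbp and Pf4 and the gene Cxcl15 among them. Cxcl9 (chr5:92321347-92328079) and Cxcl10 (chr5:92346638-92348889) lie 1415.4 kb beyond Cxcl2 on the minus strand, 18.6 kb apart, and Cxcl13 (chr5:95956951-95961068) is on the plus strand. Cxcl12 is on chromosome 6 (chr6:117168535-117181367, plus strand), Cxcl16 on chromosome 11 (chr11:70453983-70459984, minus strand) and Cxcl14 on chromosome 13 (chr13:56288643-56296551, minus strand). All 10 are annotated as protein-coding.

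RefSeq promoter windows (GRCm38.p6) matched 8 of the 10 genes, with Cxcl5 and Cxcl16 unmatched. The 110 bases before the RefSeq start of Cxcl1, Cxcl2 and Cxcl3 are shown because, of these ELR genes, only Cxcl2 was called changed with PCN below. No test compared these genes with each other. The 250 bases of Cxcl10 are shown because that gene had the widest difference between genotypes. Sequences run 5′ to 3′ on the gene's strand, and capitals mark matches to the NF-kB consensus, to the core of the interferon-stimulated response element (ISRE, GAAANNGAA) and to the TATA box (TATAAA), each searched on both strands.
Cxcl1 (chr5:90891135-90891244, plus strand): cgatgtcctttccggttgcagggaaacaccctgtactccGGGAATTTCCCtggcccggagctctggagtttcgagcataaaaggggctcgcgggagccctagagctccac
Cxcl2 (chr5:90903789-90903898, plus strand): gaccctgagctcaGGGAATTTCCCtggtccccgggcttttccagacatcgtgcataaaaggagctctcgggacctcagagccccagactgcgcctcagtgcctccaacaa
Cxcl3 (chr5:90785991-90786100, plus strand): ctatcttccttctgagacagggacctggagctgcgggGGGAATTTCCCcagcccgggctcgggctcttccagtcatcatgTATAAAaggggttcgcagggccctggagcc
Cxcl10 (chr5:92348890-92349139, minus strand): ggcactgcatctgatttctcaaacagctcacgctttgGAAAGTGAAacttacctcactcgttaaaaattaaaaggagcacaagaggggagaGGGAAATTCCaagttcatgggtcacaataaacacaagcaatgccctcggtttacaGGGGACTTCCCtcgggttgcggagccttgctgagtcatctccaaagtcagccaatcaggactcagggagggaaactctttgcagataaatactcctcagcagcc

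The NF-kB match began 71 bases before the RefSeq start in Cxcl1, 97 bases in Cxcl2 and 73 bases in Cxcl3. In each, the overlapping matches of both strands form 1 capital run of the same letters. The Cxcl2 window ends at chr5:90903898, beyond the GENCODE start at 90903871, so these distances depend on the annotation. Cxcl10 held NF-kB matches beginning 159 and 104 bases before the start and an ISRE core beginning 213 bases before it. In the 250-base windows, the NF-kB consensus was in 4 of the 8 matched genes (Cxcl1, Cxcl2, Cxcl3 and Cxcl10), against 7.25% of all 32851 windows. The ISRE core was in Cxcl9, Cxcl10 and Cxcl14 and in 7.13% of all windows. The interferon-gamma-activated site (TTCNNNGAA) was in Cxcl14 and in 7.02% of all windows, and TATAAA was in Cxcl3, Cxcl9 and Cxcl13 and in 12.4%. A match describes letters and shows no binding.

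Library totals ran from 21993687 to 30228032 expected counts (read numbers estimated per gene, with fractions), and 15075 to 15909 genes had a count per library. Levels below are CPM (counts scaled to a common library total), with SD over libraries. The first principal component, 42% of the variance, separated the genotypes. Markers of macrophages were present throughout, with Adgre1 between 101 and 139 CPM and Lyz2 at 2917 CPM or more. Their levels were not steady across groups. Lyz2 averaged 7141 CPM in FF_DMSO, 4392 CPM in FF_PCN, 4060 CPM in dMye_DMSO and 3273 CPM in dMye_PCN. Nr1i2 had at most 3 counts in any library and 8 in all, so its reads do not check the deletion. The Y-linked genes Ddx3y, Eif2s3y, Kdm5d and Uty summed to 0.457 to 1.48 CPM in dMye_PCN and 0.647 to 0.991 CPM in dMye_DMSO, against 123 to 137 CPM in FF_PCN and 113 to 128 CPM in FF_DMSO. Genotype therefore cannot be told apart from whatever goes with these Y-linked genes, sex included.

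Most of the 10 CXC genes had low levels in these cultures. Scaled by exon length (CPM per kb, the scale on which genes can be compared), Cxcl16 had the highest median level over the 18 libraries, at 7.12 CPM per kb, and its lowest library, at 5.76, was above the highest library of any other of the 10 genes. Cxcl2 followed at 3.63 CPM per kb, Cxcl14 at 2.67 and Cxcl1 at 1.39. Cxcl13 stood at 0.802 CPM per kb, Cxcl5 at 0.701, Cxcl10 at 0.449, Cxcl3 at 0.28, Cxcl12 at 0.187 and Cxcl9 at 0.0386. From Cxcl2 downward, the ranges of each neighbouring pair over all libraries overlapped.

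**Figure D1:**
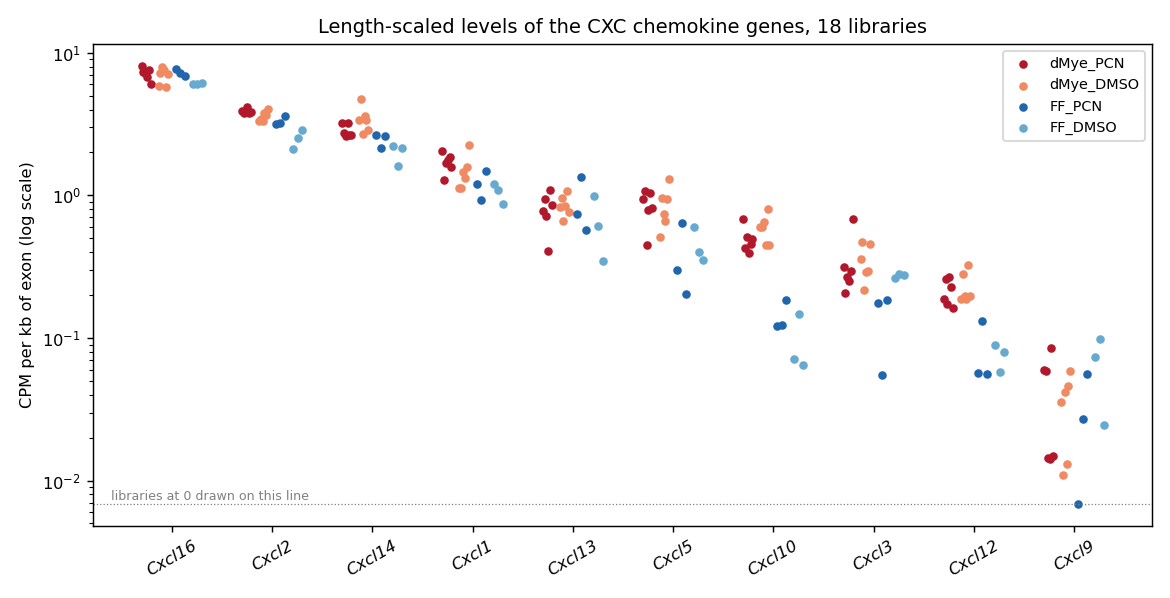
Level of each CXC chemokine gene in CPM per kb of exon on a log scale, with 1 point per library and colours for the 4 groups. Cxcl16 lies above the other 9 genes in every library, and Cxcl9 is lowest by median, at 0.0386 CPM per kb.

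The lower part of this order depended on genotype. The median of Cxcl10 was above those of Cxcl3, Cxcl12 and Cxcl9 in dMye_PCN, at 0.477 CPM per kb, and in dMye_DMSO, at 0.601. It was below that of Cxcl3 in FF_PCN, at 0.123, and the lowest of the 10 in FF_DMSO, at 0.0718. In the FF_DMSO group Cxcl12, Cxcl9 and Cxcl10 had overlapping ranges, the highest of them at 0.147 CPM per kb.

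Comparisons were made in 1 edgeR quasi-likelihood fit over all 18 libraries: PCN against DMSO in each genotype, the difference between those effects (the interaction), and dMye against FF under each treatment. A gene is called changed where its p, adjusted by Benjamini-Hochberg over the 13409 genes tested, is under 0.05. The filter on low counts kept 9 of the 10 genes. Cxcl9 fell below it, with at most 8.05 counts in a library.

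PCN raised 1 of the 9 tested CXC genes in FF macrophages, Cxcl2, and lowered none, where 6.82% of all tested genes were called higher and 6.98% lower. In dMye macrophages edgeR called 0 of the 9 genes, against 0.94% of all tested genes called higher and 1.14% lower. There, 1 gene (Cxcl14) had an unadjusted p under 0.05, and DESeq2 and limma-voom also called 0. The interaction called 0 of the 9 as well, against 0.746% of all tested genes with a more positive PCN effect in dMye and 0.671% with a more negative one. In it, 2 genes (Cxcl2 and Cxcl14) had an unadjusted p under 0.05, and DESeq2 and limma-voom called 0. The PCN response of no CXC gene was thus shown to differ between genotypes.

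Between genotypes 4 of the 9 genes were called higher in dMye under DMSO (Cxcl2, Cxcl10, Cxcl12 and Cxcl14), where 13.9% of all tested genes were called higher and 7.85% lower. Under PCN 4 were called higher (Cxcl3, Cxcl5, Cxcl10 and Cxcl12), where 16.2% of all tested genes were called higher and 11.4% lower. No CXC gene was called lower in dMye under either treatment by edgeR, DESeq2 or limma-voom, and no uncalled gene had a lower value at an unadjusted p under 0.05. The median log2 fold change of the 9 genes was 0.49 under DMSO, beside 0.021 over all tested genes, and 0.46 under PCN, beside 0.0027. The median PCN effect of the 9 was 0.27 in FF, beside 0.0091 over all tested genes, and -0.057 in dMye, beside -0.0098. Because the Y-linked genes split the same way as genotype, sex and genotype cannot be told apart in the 4 calls of either treatment.

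**Figure D2:**
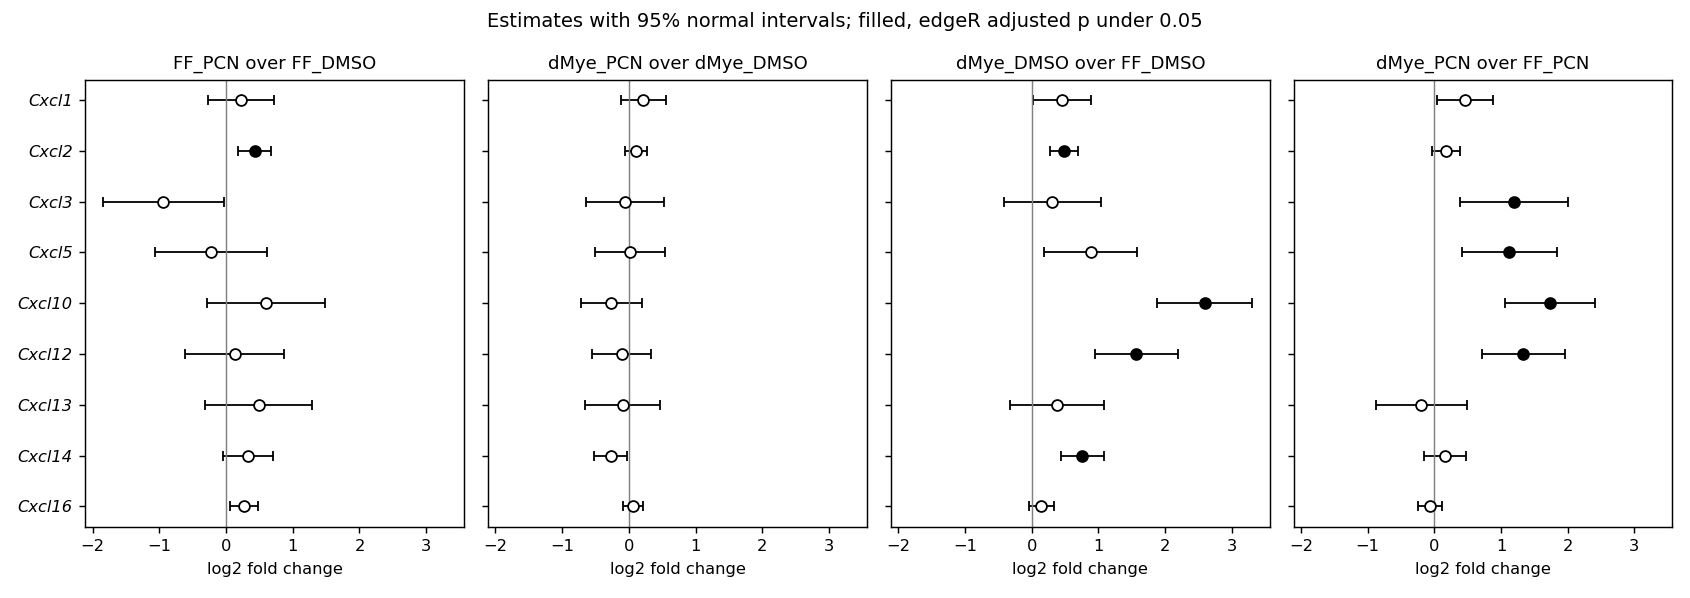
Log2 fold change of the 9 tested CXC genes in 4 comparisons (panels; PCN over DMSO in FF and dMye, then dMye over FF under DMSO and PCN), with 95% normal intervals. Filled points mark edgeR adjusted p under 0.05: Cxcl2 in the first panel, none in the second, and 4 genes in each genotype panel.

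Among the ELR chemokines, Cxcl2 was the most abundant per kb and the one CXC gene called under PCN. It stood at 6.55, 6.65 and 7.43 CPM in the FF_PCN libraries, against 4.37, 5.25 and 5.96 CPM in the FF_DMSO libraries. All FF_PCN libraries were above all FF_DMSO libraries. The means were 6.88 ± 0.484 CPM in FF_PCN and 5.19 ± 0.799 CPM in FF_DMSO (SD, n = 3 each), 1.34-fold higher with PCN (log2 0.43, SE 0.12, edgeR adjusted p = 0.0229). The call was lost without FF_DMSO replicate 1 (adjusted p = 0.147), FF_DMSO replicate 2 (0.0547) or FF_PCN replicate 3 (0.107), with no filter on low counts (0.0549) and in a fit of the FF groups alone (0.089). With PCN in FF, 6 of 12 macrophage markers and 4 of 9 B cell markers were called lower by edgeR, beside 6.98% of all tested genes. Their part in the Cxcl2 call was not tested. In these bulk cultures, a change in a gene's RNA per cell cannot be told apart from a change in the number of cells making it.

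In dMye macrophages Cxcl2 ran from 7.77 to 8.6 CPM with PCN (median 7.92) and from 6.82 to 8.37 CPM with DMSO (median 7.35). The groups overlapped, and the log2 fold change was 0.11 (SE 0.08, edgeR adjusted p = 0.567). The PCN effect in dMye minus that in FF was -0.32 on the log2 scale, with a 95% interval from -0.61 to -0.02 and an adjusted p of 0.383. Under DMSO all 6 dMye libraries were above the highest FF library, and Cxcl2 was 1.4-fold higher in dMye (log2 0.49, SE 0.11, edgeR adjusted p = 0.00208). Under PCN the genotypes again did not overlap, with a lowest dMye_PCN library of 7.77 CPM and a highest FF_PCN library of 7.43 CPM. That difference was not called (log2 0.17, 95% interval -0.04 to 0.38, edgeR adjusted p = 0.248).

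Cxcl3, the neighbour of Pf4 in the cluster, carried the same NF-kB letters and had low counts, between 4.84 and 54 per library. It stood at 0.613, 0.192 and 0.647 CPM in FF_PCN, against 0.925, 0.988 and 0.971 CPM in FF_DMSO. All FF_PCN libraries were below all FF_DMSO libraries, but the difference was not called (log2 -0.94, SE 0.46, edgeR adjusted p = 0.197). In dMye macrophages Cxcl3 ran from 0.723 to 2.41 CPM with PCN (median 0.987) and from 0.759 to 1.66 CPM with DMSO (median 1.14), and these groups overlapped. Under PCN it was 2.29-fold higher in dMye than in FF (log2 1.20, SE 0.41, edgeR adjusted p = 0.0336), and the groups did not overlap. This call was lost in limma-voom (adjusted p = 0.0573), in a fit of those groups alone (0.0628), and without FF_PCN replicate 1 (0.0511), FF_PCN replicate 2 (0.205) or dMye_PCN replicate 6 (0.0839). Under DMSO the log2 difference was 0.31 (SE 0.37, edgeR adjusted p = 0.586).

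Cxcl5, the ELR chemokine at the other end of the cluster, ranged from 0.838 to 2.02 CPM in dMye_PCN (median 1.63) and from 0.948 to 2.42 CPM in dMye_DMSO (median 1.56). The FF libraries were mostly lower, at 0.558, 1.19 and 0.381 CPM in FF_PCN and 1.13, 0.752 and 0.657 CPM in FF_DMSO. Ranges of the genotypes overlapped under both treatments. Under PCN Cxcl5 was 2.18-fold higher in dMye (log2 1.13, SE 0.37, edgeR adjusted p = 0.0252), a call lost without FF_PCN replicate 1 (0.112), FF_PCN replicate 3 (0.143) or dMye_PCN replicate 2 (0.0502). Under DMSO it was not called (log2 0.89, SE 0.36, edgeR adjusted p = 0.0801), although it passed without dMye_DMSO replicate 1 (0.0482). PCN left Cxcl5 uncalled in both genotypes, with intervals from -1.06 to 0.62 in FF and from -0.51 to 0.54 in dMye on the log2 scale.

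Cxcl1, also known as KC, averaged 3.2 ± 0.484 CPM in dMye_PCN and 2.77 ± 0.779 CPM in dMye_DMSO (SD, n = 6 each), and 2.26 ± 0.515 CPM in FF_PCN and 1.97 ± 0.313 CPM in FF_DMSO (SD, n = 3 each). Its groups overlapped in every comparison and none was called. The estimate for dMye over FF was 0.46 on the log2 scale under DMSO (SE 0.22, edgeR adjusted p = 0.143) and 0.46 under PCN (SE 0.22, edgeR adjusted p = 0.125). The PCN effect was 0.22 in both genotypes, with intervals from -0.28 to 0.71 in FF and from -0.12 to 0.55 in dMye.

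The counts of Cxcl1, Cxcl2, Cxcl3, Cxcl5 and Cxcl16 were further than 0.01 from a whole number in 14 to 17 of the 18 libraries. Estimated counts of this kind arise where reads are divided between genes or transcripts, so the values of these genes are less certain than for Cxcl13 and Cxcl14, whose counts were whole in all 18.

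**Figure D3:**
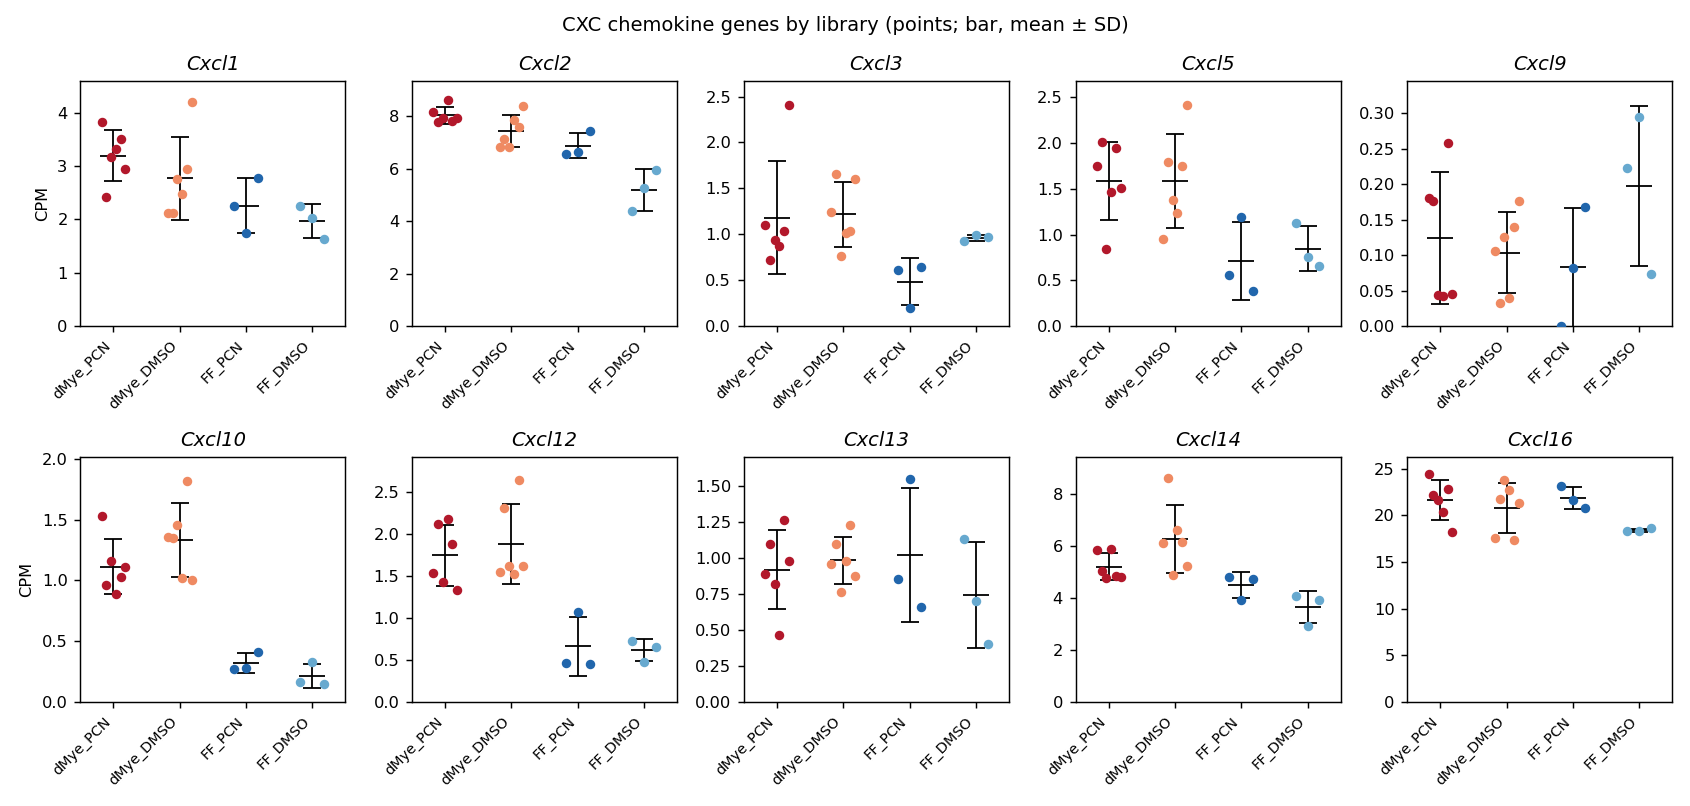
CPM of the 10 CXC chemokine genes in each library (points) with the mean ± SD of each group (bars), groups ordered dMye_PCN, dMye_DMSO, FF_PCN and FF_DMSO. Cxcl10 and Cxcl12 are higher in all dMye libraries than in the FF libraries of the same treatment, and Cxcl2 in FF_PCN lies above FF_DMSO.

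Of the interferon-induced Cxcr3 ligands, Cxcl10 differed between the genotypes more than any other of the 9 tested CXC genes. It ran from 0.888 to 1.53 CPM in dMye_PCN (median 1.07) and from 1.00 to 1.82 CPM in dMye_DMSO (median 1.35). It stood at 0.272, 0.278 and 0.413 CPM in FF_PCN and at 0.162, 0.33 and 0.145 CPM in FF_DMSO. Each of the 12 dMye libraries was above each of the 6 FF libraries. Under DMSO the dMye level was 6.05-fold that of FF (log2 2.60, SE 0.36, edgeR adjusted p = 1.24e-05), and under PCN 3.33-fold (log2 1.74, SE 0.35, edgeR adjusted p = 0.000595). Both calls held in all 26 alternatives, with adjusted p from 3.01e-08 to 0.000386 under DMSO and from 6.57e-05 to 0.00546 under PCN. The lowest library rested on 4 counts and the highest on 44.

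PCN effects on Cxcl10 were not called. The estimate was 0.60 in FF (95% interval -0.28 to 1.48, edgeR adjusted p = 0.443) and -0.26 in dMye (95% interval -0.72 to 0.19, edgeR adjusted p = 0.639). The interaction was -0.86 (95% interval -1.85 to 0.13, edgeR adjusted p = 0.512), so the smaller genotype difference under PCN was not shown to be a change. Art3, which overlaps Cxcl10 on the other strand, was chosen for mention after its values were seen and averaged at most 0.0936 CPM in a group. The strand setting of the counting is not given in the sources used here.

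Cxcl9, the other Cxcr3 ligand with a row, was near the limit of detection. It had 0 counts in 1 FF_PCN library, where a count of 0 allows up to 3 counts, and its highest level was 0.295 CPM, in an FF_DMSO library. It averaged 0.124 ± 0.0933 CPM in dMye_PCN and 0.104 ± 0.0569 CPM in dMye_DMSO (SD, n = 6 each), and 0.0831 ± 0.0838 CPM in FF_PCN and 0.197 ± 0.113 CPM in FF_DMSO (SD, n = 3 each). In a fit without the filter, its edgeR adjusted p lay between 0.47 and 0.913 over the 5 comparisons. No difference in Cxcl9 was detectable at this depth. Cxcl11, the third ligand of Cxcr3, was not analysed here.

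Cxcl12, the ligand of Cxcr4 that retains leukocytes and progenitors near stromal cells, showed the second-widest genotype difference under both treatments. It ran from 1.33 to 2.17 CPM in dMye_PCN (median 1.7) and from 1.53 to 2.64 CPM in dMye_DMSO (median 1.62). It stood at 0.466, 1.07 and 0.454 CPM in FF_PCN and at 0.728, 0.469 and 0.655 CPM in FF_DMSO. Every dMye library was above the FF libraries of the same treatment. The difference was 2.97-fold under DMSO (log2 1.57, SE 0.32, edgeR adjusted p = 0.000775) and 2.52-fold under PCN (log2 1.34, SE 0.31, edgeR adjusted p = 0.00273), and both calls held in all 26 alternatives. PCN gave estimates of 0.13 in FF (95% interval -0.61 to 0.87) and -0.11 in dMye (95% interval -0.55 to 0.33), neither called by edgeR.

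Cxcl14, a chemokine made by many epithelia and fibroblasts, ran from 4.79 to 5.87 CPM in dMye_PCN (median 4.94) and from 4.9 to 8.62 CPM in dMye_DMSO (median 6.14). It stood at 4.82, 3.93 and 4.75 CPM in FF_PCN and at 4.08, 2.94 and 3.93 CPM in FF_DMSO. Under DMSO all 6 dMye libraries were above all FF libraries, a 1.7-fold difference (log2 0.76, SE 0.17, edgeR adjusted p = 0.00174) that held in all 26 alternatives. Under PCN 4 of the 6 dMye libraries were above the highest FF library, and the difference was not called (log2 0.16, SE 0.16, edgeR adjusted p = 0.512). The PCN estimate was 0.33 in FF (SE 0.19, edgeR adjusted p = 0.30) and -0.28 in dMye (SE 0.13, edgeR adjusted p = 0.311). The difference between these estimates, -0.60 (95% interval -1.05 to -0.15), had an unadjusted p of 0.0163 and an adjusted p of 0.236, and thus failed the correction over all genes tested.

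Cxcl13, the B cell attractant of follicles and of the serosal cavities, averaged 0.918 ± 0.271 CPM in dMye_PCN and 0.981 ± 0.164 CPM in dMye_DMSO (SD, n = 6 each), and 1.02 ± 0.465 CPM in FF_PCN and 0.743 ± 0.368 CPM in FF_DMSO (SD, n = 3 each). All comparisons overlapped and none was called. The genotype estimate was 0.38 under DMSO (95% interval -0.32 to 1.09) and -0.20 under PCN (95% interval -0.88 to 0.48).

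Cxcl16, the membrane-bound Cxcr6 ligand, was the most abundant of the CXC genes per kb. It stood at 23.2, 21.7 and 20.8 CPM in FF_PCN, against 18.3, 18.3 and 18.6 CPM in FF_DMSO, and these groups did not overlap. The difference of 0.27 on the log2 scale (SE 0.11) missed the threshold (edgeR adjusted p = 0.107) and passed it in a fit of the FF groups alone (0.0497). In dMye cells it averaged 21.6 ± 2.15 CPM with PCN and 20.8 ± 2.69 CPM with DMSO (SD, n = 6 each), with overlap and a log2 estimate of 0.06 (95% interval -0.09 to 0.21). The genotype estimates were 0.15 under DMSO (95% interval -0.04 to 0.33) and -0.07 under PCN (95% interval -0.25 to 0.12). Zmynd15, which overlaps Cxcl16 on the other strand and was picked for mention after its values were seen, averaged 2.67 to 3.17 CPM in the 4 groups and was called in no comparison.

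Of the other ligands of the family, Pf4 (platelet factor 4) was above all 10 genes in median level per kb, at 50.2 CPM per kb, and Ppbp, Cxcl15 and Cxcl17 had at most 4 counts in any library. Pf4 averaged 43.9 ± 7.95 CPM in dMye_DMSO and 32.9 ± 2.03 CPM in FF_DMSO (SD, n = 6 and 3), a called difference (log2 0.39, SE 0.13, edgeR adjusted p = 0.0416) that DESeq2 also called and limma-voom did not. Under PCN it averaged 37.9 ± 4.75 CPM in dMye and 30.5 ± 1.65 CPM in FF (SD, n = 6 and 3), which was not called.

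Among the receptors, 7 of the 8 listed genes were tested, and Ackr1 was not, with at most 3 counts. Cxcr4 was the one abundant receptor, with a median of 147 CPM per kb, far above its ligand Cxcl12 at 0.187 CPM per kb. With PCN, edgeR called 0 of the 7 receptors in FF (1 at an unadjusted p under 0.05) and 0 in dMye (2 at an unadjusted p under 0.05). DESeq2 and limma-voom called 0 in both. Of all tested genes, edgeR called 6.82% higher and 6.98% lower in FF, and 0.94% higher and 1.14% lower in dMye. Between genotypes under DMSO, edgeR and limma-voom called 1 of the 7 receptors lower in dMye and DESeq2 called 3, with 0 called higher. Cxcr5, the Cxcl13 receptor of B cells, was lower in dMye under DMSO, at a mean of 0.479 CPM against 1.58 CPM in FF_DMSO (log2 -1.76, SE 0.38, edgeR adjusted p = 0.00162). Under PCN it averaged 0.371 CPM in dMye against 0.946 CPM in FF (log2 -1.40, SE 0.41, edgeR adjusted p = 0.0128). B cell markers moved with it: 7 of 9 were called lower in dMye under DMSO and 3 of 9 under PCN. Over all tested genes, 7.85% were called lower under DMSO and 11.4% under PCN. The part of B cells in the Cxcr5 difference was not tested. Cxcr4 averaged 250 CPM in dMye_PCN against 274 CPM in FF_PCN (log2 -0.18, SE 0.05, edgeR adjusted p = 0.006).

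Of 6 tested proteases that can cut CXC chemokines, 1 rose and 1 fell with PCN in FF, where 6.82% of all tested genes were called higher and 6.98% lower. Adam17, which sheds membrane proteins, rose to 350 CPM with PCN in FF, against 305 CPM with DMSO (log2 0.22, SE 0.05, edgeR adjusted p = 0.00233). Mmp8, the neutrophil collagenase, fell to 18.3 CPM with PCN in FF, against 30.1 CPM with DMSO (log2 -0.70, SE 0.10, edgeR adjusted p = 2.99e-05), and was called in the interaction (log2 0.48, SE 0.12, edgeR adjusted p = 0.0468). Dpp4, which trims the amino end of Cxcl10 and Cxcl12, was higher in dMye, as those ligands were. It averaged 10.6 CPM in dMye_PCN against 2.01 CPM in FF_PCN (log2 2.35, SE 0.15, edgeR adjusted p = 8.55e-11) and 10.4 CPM in dMye_DMSO against 2.83 CPM in FF_DMSO (log2 1.84, SE 0.14, edgeR adjusted p = 2.09e-09). Mmp12, Mmp8 and Adam17 were called lower in dMye under both treatments. For dMye over FF, 13.9% of all tested genes were called higher and 7.85% lower under DMSO, and 16.2% higher and 11.4% lower under PCN.

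Genes of NF-kB control act upstream of the ELR chemokines. Of 15 tested, 5 rose (Nfkbib, Tnfaip3, Chuk, Relb and Nfkb2) and 1 fell (Nfkbie) with PCN in FF, beside 6.82% of all tested genes called higher and 6.98% lower. The call of Nfkbie was lost in limma-voom. Tnfaip3, a deubiquitinase that limits NF-kB, reached 96.4 CPM with PCN against 77.3 CPM with DMSO (log2 0.34, SE 0.06, edgeR adjusted p = 0.00075). In dMye 2 rose (Tnfaip3 and Nfkb2), beside 0.94% of all tested genes. The interaction called 0 of 15 by edgeR, with 3 at an unadjusted p under 0.05, against 1 by DESeq2 and 0 by limma-voom. Of all tested genes, edgeR called 0.746% with a more positive PCN effect in dMye and 0.671% with a more negative one. Between genotypes 3 were higher and 2 lower in dMye under DMSO (13.9% and 7.85% of all tested genes), and 2 were higher and 7 lower under PCN (16.2% and 11.4% of all tested genes). Nfkbiz and Bcl3, nuclear IkB proteins, were higher in dMye under both treatments, Nfkbiz by 0.53 (SE 0.12, edgeR adjusted p = 0.0024) under DMSO and 0.37 (SE 0.12, edgeR adjusted p = 0.0224) under PCN on the log2 scale.

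Of 14 tested genes for signals that induce these chemokines, 4 rose (Il1a, Ticam1, Traf6 and Tnf) and 1 fell (Tnfrsf1a) with PCN in FF, beside 6.82% of all tested genes called higher and 6.98% lower. In dMye 2 rose (Il1a and Traf6), beside 0.94% of all tested genes. Il1a reached 64.4 CPM with PCN in FF against 39.8 CPM with DMSO (log2 0.72, SE 0.09, edgeR adjusted p = 1.5e-05). The lipopeptide receptor Tlr2, the co-receptor Cd14 and the interleukin-1 receptor Il1r1 were higher in dMye under both treatments, Il1r1 by 1.30 (SE 0.12, edgeR adjusted p = 1.74e-08) under DMSO. The endotoxin receptor Tlr4 was called in neither. Between genotypes 4 of the 14 were higher and 1 lower in dMye under DMSO, and 4 were higher and 3 lower under PCN, beside the shares over all tested genes given for the genotypes above. Il6 was higher in dMye under PCN, at 0.886 ± 0.181 CPM against 0.17 ± 0.161 CPM in FF (SD, n = 6 and 3; edgeR adjusted p = 0.00186).

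Among 5 genes tied to the decay of chemokine mRNA, Dusp1, a phosphatase that lowers p38 signalling, rose with PCN in FF to 110 CPM against 70.1 CPM with DMSO (log2 0.68, SE 0.06, edgeR adjusted p = 8.98e-08). In dMye it reached 76.6 CPM with PCN against 66.8 CPM with DMSO (log2 0.20, SE 0.04, edgeR adjusted p = 0.0154), and the interaction was called (log2 -0.48, SE 0.07, edgeR adjusted p = 0.00141). Zfp36l2, which binds AU-rich mRNA, rose with PCN in FF, and its relative Zfp36l1 fell, beside 6.82% of all tested genes called higher and 6.98% lower. Zfp36l1 was higher in dMye under both treatments, and Zfp36, Zfp36l2, Zc3h12a and Dusp1 were lower in dMye under PCN. Between genotypes, 13.9% of all tested genes were called higher and 7.85% lower under DMSO, and 16.2% higher and 11.4% lower under PCN.

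Genes of interferon control act upstream of Cxcl9 and Cxcl10. Their part in the Cxcl10 difference was not tested. Of 14 tested, 0 were higher and 4 lower (Jak1, Jak2, Irf8 and Tyk2) in dMye under DMSO by edgeR, DESeq2 and limma-voom alike. At an unadjusted p under 0.05, 0 were higher. Over all tested genes, edgeR called 13.9% higher and 7.85% lower there. Under PCN 2 were higher (Irf7 and Irf9) and 2 lower (Jak1 and Irf8), near the shares over all tested genes, 16.2% higher and 11.4% lower. Irf9, a subunit of the factor that binds the ISRE, fell with PCN in FF (log2 -0.41, SE 0.08, edgeR adjusted p = 0.00127), and Jak1 rose. With PCN in dMye, edgeR called 0 of the 14, with 2 at an unadjusted p under 0.05, against 1 by DESeq2 and 0 by limma-voom. The shares of all tested genes called higher and lower with PCN were 6.82% and 6.98% in FF, and 0.94% and 1.14% in dMye.

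Markers of mesothelial cells, fibroblasts and resident peritoneal macrophages moved with genotype in the same direction as Cxcl10, Cxcl12 and, called under DMSO only, Cxcl14. Some other lists did not. Under DMSO 7 of 9 B cell markers and 3 of 5 tested neutrophil markers were called lower in dMye. So were 2 of 6 tested T and NK cell markers and 2 of 6 of dendritic cells, with 0 called higher. Of 12 macrophage markers, 5 were called higher and 2 lower under DMSO, and 9 higher and 1 lower under PCN. Of the 16 tested markers of mesothelial cells and fibroblasts (17 listed), 15 were called higher in dMye under DMSO and 15 under PCN. Their median log2 differences were 2.14 and 2.35. Over all tested genes, 13.9% were called higher and 7.85% lower under DMSO, and 16.2% higher and 11.4% lower under PCN. The listed markers summed to 693 to 813 CPM in dMye_PCN and 705 to 887 CPM in dMye_DMSO, against 160 to 178 CPM in FF_PCN and 201 to 203 CPM in FF_DMSO. None of the 16 was at 0 in any library, and Dpt was at 0 in 4. Of 9 markers of resident peritoneal macrophages, 6 were called higher in dMye under DMSO and 8 under PCN, among them Gata6 at 14 CPM in dMye_DMSO against 5.02 CPM in FF_DMSO. The listed resident markers summed to 638 to 734 CPM in dMye_PCN and 722 to 860 CPM in dMye_DMSO, against 576 to 632 CPM in FF_PCN and 767 to 821 CPM in FF_DMSO, so the sum, unlike the counts, was not higher in dMye_DMSO than in FF_DMSO. The part of any of these cells in the chemokine differences was not tested.

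**Figure D4:**
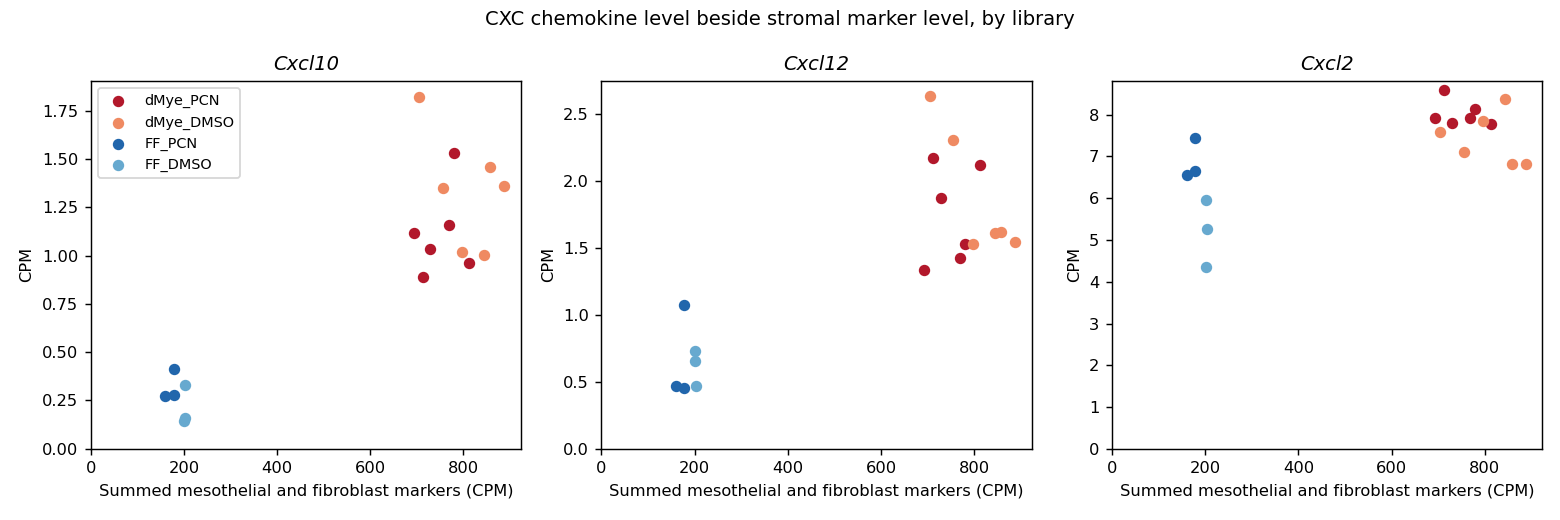
Level in CPM of Cxcl10, Cxcl12 and Cxcl2 (panels, vertical axis) against the summed CPM of the 17 listed mesothelial and fibroblast markers (horizontal axis), 1 point per library, coloured by group. The dMye libraries lie at 693 CPM of markers or more and the FF libraries at 203 or less, with no library between.

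Pairs of CXC genes differed in how far they varied together within groups. As deviations from group means (Pearson r of log2 CPM, n = 18 libraries, a description that shares each library's depth), Cxcl5 and Cxcl12 had r = 0.654 and Cxcl5 and Cxcl13 had r = 0.587, whereas Cxcl12 and Cxcl14 had r = 0.254 and Cxcl10 and Cxcl12 had r = -0.135. Cxcl2 and Cxcl1, adjacent on chromosome 5, had r = 0.242, and Cxcl2 and Cxcl3 had r = 0.151. The gene most like Cxcl10 among 12918 other named genes was Timp1, a metalloproteinase inhibitor, at r = 0.853 within groups. For Cxcl2 it was Pde6b (r = 0.856), for Cxcl5 Dusp7 (r = 0.861), for Cxcl12 Mgme1 (r = 0.828) and for Cxcl3 Sfxn2 (r = 0.811). Each is the highest of many correlations over 18 libraries and is given as a description.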

How the data were processed

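Total RNA of 18 cultures of peritoneal macrophages was sequenced, and the authors deposited 1 table of expected counts (estimated counts, not normalised) per gene symbol. Of its values, 51.2% were not whole. Per the submitters' processing notes the genome build was mm10, while aligner, quantifier, annotation and strand setting were not given in the sources used here. Groups came from the genotype and agent labels; a further allele that all groups share is not reported here.

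Expected counts were rounded and fitted with edgeR 4.0.16 (R 4.3.3; filterByExpr, TMM, robust quasi-likelihood, 4 groups, no covariate), which kept 13409 genes. The biological coefficient of variation was 9.69%. The SE is the absolute log2 fold change over the root of its F statistic, and 95% intervals are normal. CPM used unrounded counts and plain totals. A count of 3, the floor, equals 0.0992 to 0.136 CPM. Floors cover counting error only, whereas the intervals also cover spread from library to library. Lengths and positions are from GENCODE M21 and promoters from RefSeq. The fit was tested on simulated data. Replicates differed by more than sampling noise (chi-square per gene 3.83 to 47).

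The 10 genes and the lists were chosen with earlier results of these data known. Every one of the 10 is named; of each other list, up to 4 called genes per comparison by smallest p. Adgre1, Gata6, Dpt, Nfkbie, Tnfrsf1a and Zfp36 were named after their values were seen. The most alike genes exclude Gm and Rik models. Tried as alternatives were upper-quartile and RLE scaling, no filter, a filter of 1 CPM in 6 libraries, DESeq2 1.42.0, limma-voom 3.58.1, the 2 groups compared alone, leaving out each library, and, added after seeing the data, leaving out dMye_DMSO 5 and 6, which lay at opposite ends of their group on principal components.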

Additional observations from a re-analysis of the deposited data

Results flagged for a closer look

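Among the 10 genes in the dMye_PCN and dMye_DMSO groups, 20 sets of 6 libraries were examined for a library far from the others, and 1 stood out. Cxcl3 in dMye_PCN replicate 6 was at 2.407 CPM, while the next highest library of that group was at 1.104 CPM. The gap was 0.774 of the group's whole range, against a critical value of 0.625. Chance alone flags about 1 in 20 such sets. Without that library the genotype difference of Cxcl3 under PCN was not called (log2 0.87, edgeR adjusted p = 0.0839).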

How the results depend on the processing

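No paired analysis was possible because the labels give the groups no shared replicate numbers. Over the 5 comparisons, the counts of CXC genes called in dMye with PCN and in the interaction were 0 under all alternatives, and the count between genotypes under DMSO was 4 to 5 when each library was left out. With PCN in FF the count was 0 with no low-count filter and 0 to 1 when each library was left out, with 0 without FF_DMSO replicate 1, FF_DMSO replicate 2 or FF_PCN replicate 3; the fit of the FF groups alone called Cxcl16 in place of Cxcl2. Between genotypes under PCN it was 2 to 4 when each library was left out, with 2 without FF_PCN replicate 1. Leaving out dMye_DMSO 5 and 6, chosen after seeing the data, changed no call. Direction turned for uncalled estimates near 0. Cxcl5 with PCN in dMye was -0.00186 under upper-quartile scaling, and Cxcl3 there was 0.003024 without dMye_DMSO 5 and 6. When each library was left out, log2 estimates with PCN in FF ran from -0.8455 to 0.05927 for Cxcl5 and from -0.4083 to 0.3196 for Cxcl12. With PCN in dMye they ran from -0.38 to 0.05443 for Cxcl3, from -0.09763 to 0.1551 for Cxcl5, from -0.1786 to 0.01989 for Cxcl12 and from -0.2059 to 0.04005 for Cxcl13. In the interaction they ran from -0.1421 to 0.1868 for Cxcl1, from -0.04209 to 0.8628 for Cxcl5 and from -0.4243 to 0.3038 for Cxcl12, and for Cxcl13 between genotypes under PCN from -0.4295 to 0.2255. The cause of these changes was not tested. Depth limits the genes near 1 CPM, where 1 CPM stands for 22 to 30.2 counts, and Cxcl3, Cxcl5, Cxcl10, Cxcl12 and Cxcl13 lie there.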
